A study of Drosophila melanogaster with 16 samples.

Results

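The genes described here are the ecdysone receptor, its partner usp and genes of the early and later response to ecdysone. They are 10 Drosophila genes chosen by name: EcR, usp, br, Eip74EF, Eip75B, Eip78C, Eip93F, Hr39, ftz-f1 and Hr4. The platform annotation named 14 of 17258 probes for 8 of them, and Eip74EF and Eip75B were not among the named probes. There were 5 probes for br, 3 for Hr39 and 1 for each of the other genes. The Hr4 probe also carried the name CG3600, which the RefSeq gene table lists as an older tag of Hr4. Of the 8 genes, 7 entered the test among 12952 features (8841 named genes and single unnamed probes), and Hr4 had too few values.

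The values were log ratios from 2-colour long-oligonucleotide arrays of the fly lines DmD8 and Kc (KC in some labels), both grown with fetal calf serum and insulin. Activated cells had received 2 mM EDTA in PBS for 30 minutes, which strips calcium and switches on the Notch receptor, and any other effect of EDTA cannot be told apart from that of Notch. The comparison RNA was from PBS-treated cells for Kc. For DmD8 the same 5 columns were deposited under 2 sets of titles, PBS-treated cells or cells kept overnight with 300 µM DFK-167, a presenilin inhibitor, before EDTA, so the ratios may hold the response to activation or that to the drug. The sources describe 3 biological replicates with dye swaps per experiment, which gave 5 arrays of DmD8 and 6 of Kc, each with 13353 to 15638 probe values. In DmD8 arrays 1 to 3 and in Kc arrays 1 to 3 the activated RNA was in Cy5, and it was in Cy3 on the others.

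Ecdysone is the steroid that times moulting and metamorphosis in insects. Its active form binds EcR, a nuclear receptor that works as a dimer with usp, the fly relative of the vertebrate RXR. The dimer directly induces a small set of early genes, most of which encode transcription factors, and these act on later genes and on each other. Kc cells are known to hold the receptor and to answer added hormone. No addition of ecdysone is described for these samples, so the comparisons ask whether receptor and response gene transcripts moved when Notch was activated. The ratios carry no expression level, so the labelled cell types could not be checked; 6 of 7 muscle progenitor markers and 9 of 10 blood cell markers were named on the array. By limma 2 of 6 tested muscle progenitor markers rose in DmD8 and 1 in Kc, and 3 of 8 tested blood cell markers rose in Kc and 0 in DmD8 (1 at an unadjusted p under 0.05), where 3.08% of all features were higher in DmD8 and 7.1% in Kc. However the dye swaps were paired with the other arrays, 1 muscle progenitor marker in DmD8 (Him), 1 in Kc (zfh1) and 2 blood cell markers in Kc (srp and ush) stayed called. Over all features 1.05% did in DmD8 and 3.52% in Kc. The part of these markers in the results was not tested.

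A positive value is read as higher in activated cells. This direction is likely, not stated. It rests on the labelled dyes and on a known Notch target, E(spl)mbeta-HLH, which stood between 4.55 and 6.51 on all 6 Kc arrays, swaps included. In DmD8 this gene stood between -0.26 and 0.27 (fitted 0.04 ± 0.26, adjusted p = 0.951), and there the direction rests on the dyes and on 3 other known targets, E(spl)m2-BFM, E(spl)m7-HLH and E(spl)m3-HLH, which were positive on all 5 arrays with fitted values of 1.34, 1.25 and 1.24. The orientations differed widely. Ratios of the Cy5 arrays lay wholly above or below those of the swaps for 53.8% of features in DmD8 and 42.8% in Kc. With fewer swaps in DmD8, full separation arises more easily by chance there, so these shares cannot be compared between the lines. Over 10060 features, arrays of one orientation correlated on average at 0.54 in DmD8 and 0.61 in Kc, and arrays of opposite orientation at -0.03 and 0.01. Each fitted value is therefore the mean of both orientations, from limma with a dye term per line, with its standard error, and adjusted p is over all tested features (Benjamini-Hochberg, threshold 0.05). In bulk RNA, a change in the number of cells with a transcript and a change per cell cannot be told apart. With 3 biological replicates behind 5 or 6 arrays, the swaps repeat RNA of other arrays, so arrays are not independent and p-values over arrays are too small. For this reason swaps were also averaged with Cy5 arrays in all 36 combinations, and a call was said to hold under every pairing if it passed in all 36. DmD8 has fewer swaps than Cy5 arrays, so each pairing left a DmD8 Cy5 array alone, and the dye term took it up. With all values present, a pairing thus rested on fewer averages in DmD8 than in Kc. Calls under every pairing are therefore not like for like between the lines. Kc arrays 2 and 5 stood apart for Hsp26, a small heat shock protein gene, which was at 1.90 and 1.92 on them and between -0.27 and 0.14 on the other 4.

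In Kc EcR and most of the other tested genes stood above the comparison. By limma, 5 of the 7 tested genes rose (br, Eip93F, EcR, Hr39 and ftz-f1), usp fell, and Eip78C did not pass. Over all features 11.9% were called in Kc, 7.1% higher and 4.81% lower. In DmD8 2 of the 7 genes rose, br and Eip93F, and none fell, where 7.24% of all features were called, 3.08% higher and 4.16% lower. The median of the 7 fitted log ratios was 0.35 in Kc, against 0.01 over all features, and 0.24 in DmD8, against -0.04. Under every pairing EcR and br in Kc stayed called, where 3.52% of features did. None of the 7 did in DmD8 by limma, where 1.05% of features did and 2 of the 7 had an unadjusted p under 0.05. Each pairing in effect left out a Cy5 array in DmD8 and not in Kc, so these counts cannot be compared between the lines.

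**Figure D1:**
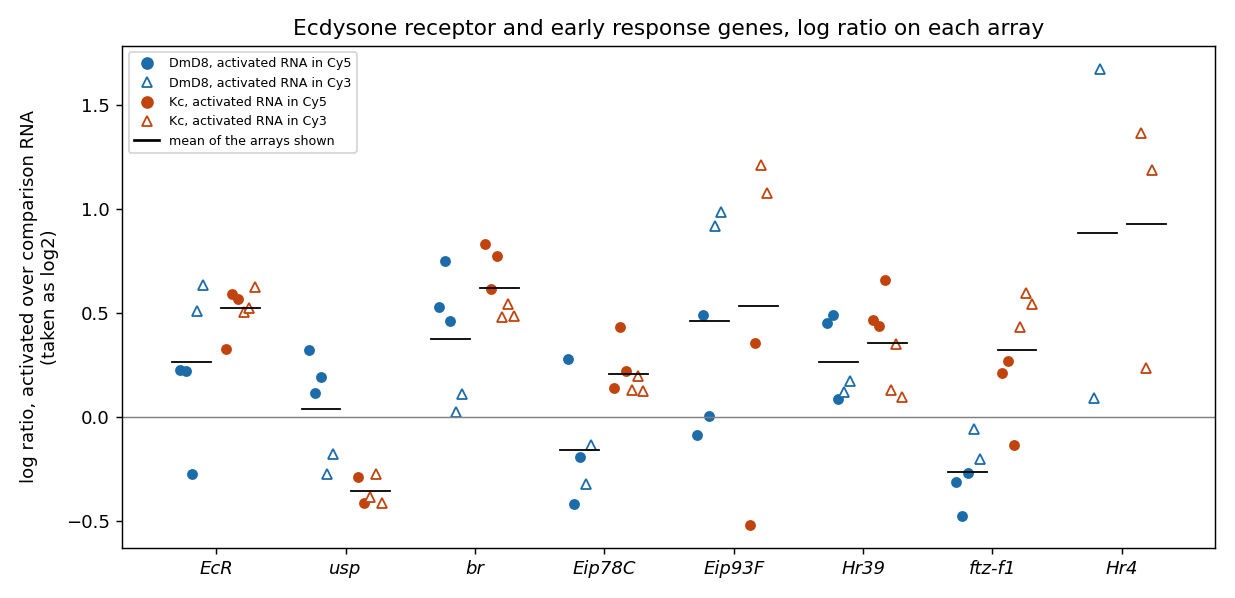
Log ratio (activated over comparison RNA, taken as log2) of the 8 genes with a probe, 1 symbol per array, in DmD8 (blue) and Kc (red). Filled circles have activated RNA in Cy5, open triangles in Cy3, and bars are means of the arrays shown. EcR and br are above 0 on all 6 Kc arrays, usp is below 0 on all 5 Kc arrays with a value, and Eip93F and Hr4 are highest on the swaps.

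EcR, which binds the hormone, rose in Kc. Its log ratios in Kc were 0.33, 0.59 and 0.57 on the Cy5 arrays and 0.50, 0.52 and 0.62 on the swaps. All 6 were positive and the orientations overlapped, so this gene showed almost no dye term (-0.03 ± 0.08). The fitted value was 0.52 ± 0.08 (limma, adjusted p = 0.00158), and adjusted p over the pairings ran from 0.00437 to 0.0253. In DmD8 the ratios were 0.22, 0.22 and -0.28 on the Cy5 arrays and 0.51 and 0.64 on the swaps. Array 3 was negative and both swaps lay above every Cy5 array. The fitted value of 0.31 ± 0.09 missed the threshold (adjusted p = 0.0560), and passed in 4 of the 36 pairings. Adjusted p was 0.0144 without array 3, 0.0390 with array medians set to 0 and 0.0378 among features with a value on all 11 arrays, but between 0.142 and 0.239 without any other DmD8 array.

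The partner of EcR in the dimer, usp, moved the other way in Kc. Its ratios there were -0.29 and -0.41 on the Cy5 arrays with a value and -0.39, -0.28 and -0.42 on the swaps. The orientations overlapped and all 5 were negative. The fitted value was -0.36 ± 0.07 (limma, adjusted p = 0.00905), which did not pass without array 3 (adjusted p = 0.0574) and passed in 2 of the 36 pairings (adjusted p up to 0.135). In DmD8 usp stood at 0.32, 0.12 and 0.19 on the Cy5 arrays and at -0.28 and -0.18 on the swaps. The sign followed the dye, and the fitted value was -0.01 ± 0.07 (adjusted p = 0.958). Hence the transcripts of the 2 receptor partners had opposite signs in Kc.

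The early gene br encodes a family of BTB zinc finger factors needed for metamorphosis. Averaged over its 5 probes it had the smallest p of the 7 genes in both lines. In Kc the averages were 0.83, 0.61 and 0.78 on the Cy5 arrays and 0.48, 0.54 and 0.48 on the swaps. All were positive, with the Cy5 arrays above the swaps. The fitted value was 0.62 ± 0.06 (limma, adjusted p = 0.000130), and adjusted p was at most 0.00922 over the pairings. In DmD8 the averages were 0.53 (without probe A, which had no value there), 0.75 and 0.46 on the Cy5 arrays but 0.02 and 0.11 on the swaps. All 5 were positive, and the gap between orientations was larger than in Kc (dye term 0.26 ± 0.07 in DmD8 and 0.12 ± 0.06 in Kc; the difference between these terms was not tested). The fitted value in DmD8 was 0.32 ± 0.07 (limma, adjusted p = 0.0195), and the call was lost without array 2, 4 or 5 (adjusted p = 0.0726, 0.0745 and 0.112). It was made in 3 of the 36 pairings (adjusted p up to 0.371).

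The 5 br probes, called A to E here, did not move alike. All 5 had positive fitted values in both lines. Tested one by one, 4 passed in Kc and 2 in DmD8, where 12.3% and 7.37% of 13419 single probes did. Probe A had the highest fitted value in Kc, with ratios of 0.86, 1.03 and 0.76 on the Cy5 arrays and 1.18, 1.23 and 1.24 on the swaps. The fitted value there was 1.05 ± 0.07, and in DmD8 0.42 ± 0.09. Probe D was next in Kc (0.88 ± 0.09), with 1.19, 1.19 and 1.35 on the Cy5 arrays, above probe A on all 3, and 0.47, 0.79 and 0.29 on the swaps, so that its dye gap ran opposite to that of probe A. In DmD8 probe D was positive on the Cy5 arrays (0.49, 1.15 and 0.84) and negative on both swaps (-0.40 and -0.10). Probe E stood at 0.59 ± 0.07 in Kc and 0.35 ± 0.08 in DmD8, and probe B at 0.27 ± 0.07 in Kc. Probe C, at 0.32 ± 0.10 in Kc, did not pass (adjusted p = 0.0673), and its array 2 was the one negative value outside the swaps (-0.36). br makes several transcripts with different zinc finger ends. Which of them each probe reads is not stated in the sources used here.

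**Figure D2:**
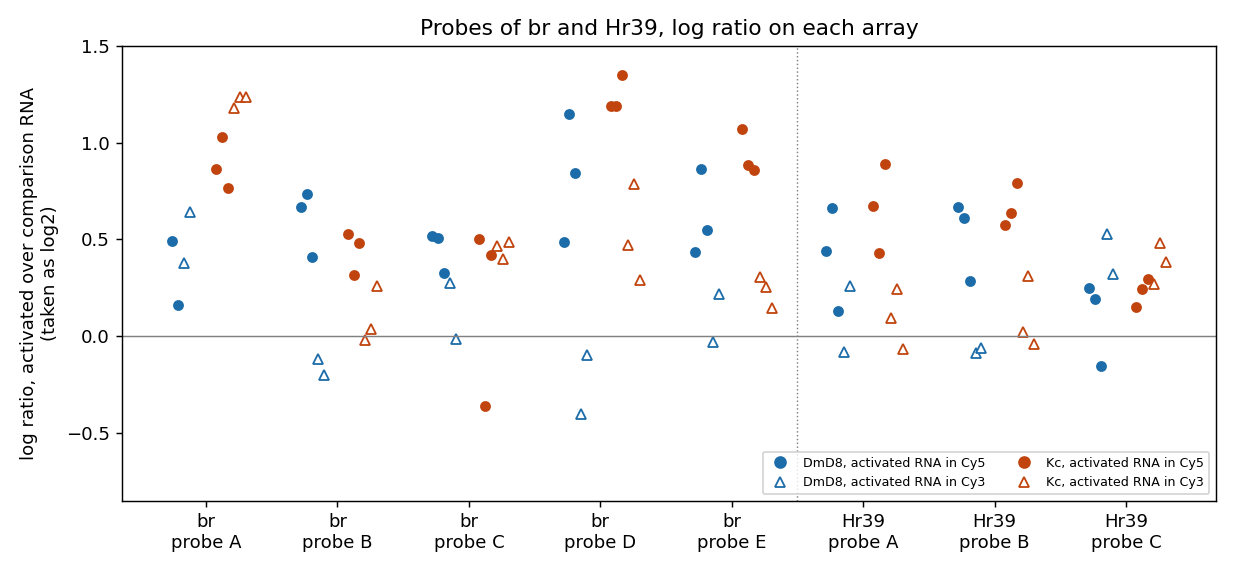
Log ratio on each array of the 5 br probes and the 3 Hr39 probes, coloured by line, with filled circles for activated RNA in Cy5 and open triangles for Cy3. The Cy5 arrays are above the swaps for br probes B, D and E and for Hr39 probe B in both lines, whereas the Kc swaps are above the Cy5 arrays for br probe A.

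Eip93F encodes a helix-turn-helix factor that drives cell death and adult programmes late in metamorphosis. It had the largest fitted value of the 7 genes in DmD8 and a similar one in Kc, but with the widest spread. In DmD8 its ratios were -0.09, 0.49 and 0.00 on the Cy5 arrays and 0.92 and 0.98 on the swaps. In Kc the 4 arrays with a value gave -0.52 and 0.35 in Cy5 and 1.21 and 1.08 on the swaps. In both lines every swap was above every Cy5 array, and with the Cy5 arrays alone the values were 0.13 in DmD8 and -0.08 in Kc. The fitted values were 0.54 ± 0.13 in DmD8 (limma, adjusted p = 0.0377) and 0.53 ± 0.14 in Kc (adjusted p = 0.0420). They passed in 1 and 17 of the 36 pairings (adjusted p up to 0.203 and 0.115). The DmD8 call was lost without any 1 of the 5 DmD8 arrays or without Kc array 4 or 6 (adjusted p from 0.0508 to 0.167). The Kc call was lost without Kc array 3, 4, 5 or 6 or DmD8 array 1, 3, 4 or 5 (adjusted p from 0.0536 to 0.200).

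Eip78C encodes an orphan nuclear receptor of the early response. Its Kc ratios were 0.14, 0.43 and 0.22 on the Cy5 arrays and 0.13, 0.20 and 0.12 on the swaps, all positive and overlapping between dyes. The fitted value was 0.21 ± 0.09 (limma, adjusted p = 0.169). In DmD8 array 1 stood at 0.28 and the other 4 between -0.42 and -0.14, with a fitted value of -0.17 ± 0.10 (adjusted p = 0.357). It passed in neither line.

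Hr39 and ftz-f1 encode nuclear receptors of one subfamily, and ftz-f1 makes tissues competent to answer the prepupal hormone pulse. Hr39, averaged over 3 probes, stood in Kc at 0.47, 0.44 and 0.66 on the Cy5 arrays and at 0.13, 0.35 and 0.09 on the swaps. In DmD8 it stood at 0.45, 0.49 and 0.09 on the Cy5 arrays and at 0.12 and 0.17 on the swaps. The average was thus positive on every array of both lines. Single probes were not: in DmD8 probes A, B and C were negative on 1, 2 and 1 arrays, and in Kc probes A and B on 1 each. The fitted value passed in Kc (0.35 ± 0.07, limma, adjusted p = 0.00920) and did not in DmD8 (0.24 ± 0.08, adjusted p = 0.114). All 3 probes passed by themselves in Kc, with 0.38 ± 0.09, 0.38 ± 0.08 and 0.30 ± 0.07 for probes A, B and C. Probes A and B were higher on the Kc Cy5 arrays and probe C tended the other way. The Kc call was made in 29 of the 36 pairings (limma, adjusted p up to 0.0753). It was lost without Kc arrays 2 and 5 together (0.34 ± 0.10, adjusted p = 0.0629), the arrays that stood apart for Hsp26. The fitted value changed little and its standard error grew, and no other pair of arrays was left out.

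The ratios of ftz-f1 differed in sign between the lines. In DmD8 they were -0.32, -0.48 and -0.27 on the Cy5 arrays and -0.06 and -0.21 on the swaps, all negative. In Kc they were 0.21, 0.27 and -0.14 on the Cy5 arrays and 0.43, 0.59 and 0.54 on the swaps, with only array 3 negative. The only overlap was that Kc array 3 fell among the DmD8 values. The gene rose in Kc (0.32 ± 0.07, limma, adjusted p = 0.0137), a call that was lost without Kc array 1 or 5 (adjusted p = 0.0507 and 0.0556) or without Kc arrays 2 and 5 together (0.26, adjusted p = 0.126). It passed in 17 of the 36 pairings (adjusted p up to 0.116). On the Kc Cy5 arrays alone it stood at 0.11 ± 0.11 (adjusted p = 0.506). In DmD8 the fitted value of -0.24 ± 0.08 did not pass (adjusted p = 0.102).

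Hr4, an orphan receptor that in fly larvae helps time the hormone pulses, had values on the swaps only. These were 0.09 and 1.67 in DmD8 and 1.36, 0.23 and 1.19 in Kc. All 5 were positive. With no array of the other orientation, its response and its dye effect cannot be told apart.

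Ranked by fitted log ratio in Kc, the order was br, Eip93F, EcR, Hr39, ftz-f1, Eip78C and usp. The 95% confidence intervals of neighbours overlapped except for Eip78C (0.01 to 0.40) and usp (-0.51 to -0.20). In DmD8 the order was Eip93F, br, EcR, Hr39, usp, Eip78C and ftz-f1, and all neighbouring intervals overlapped. Of the 7 genes, br and Hr39 were positive on all 5 DmD8 arrays as averages of their probes, and ftz-f1 was negative on all 5. Of features with a value on each, 5.01% were positive and 7.99% negative on all 5. Single probes of br and Hr39 were negative on some arrays of either line. Of the 5 genes with a value on all 6 Kc arrays, EcR, br, Eip78C and Hr39 were positive on each, as were 7.98% of features with a value on each, and none of the 5 was negative on each, where 5.63% were. None of these 5 genes had the lines wholly apart, as 3.91% of features did with Kc above and 2.48% with DmD8 above.

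**Figure D3:**
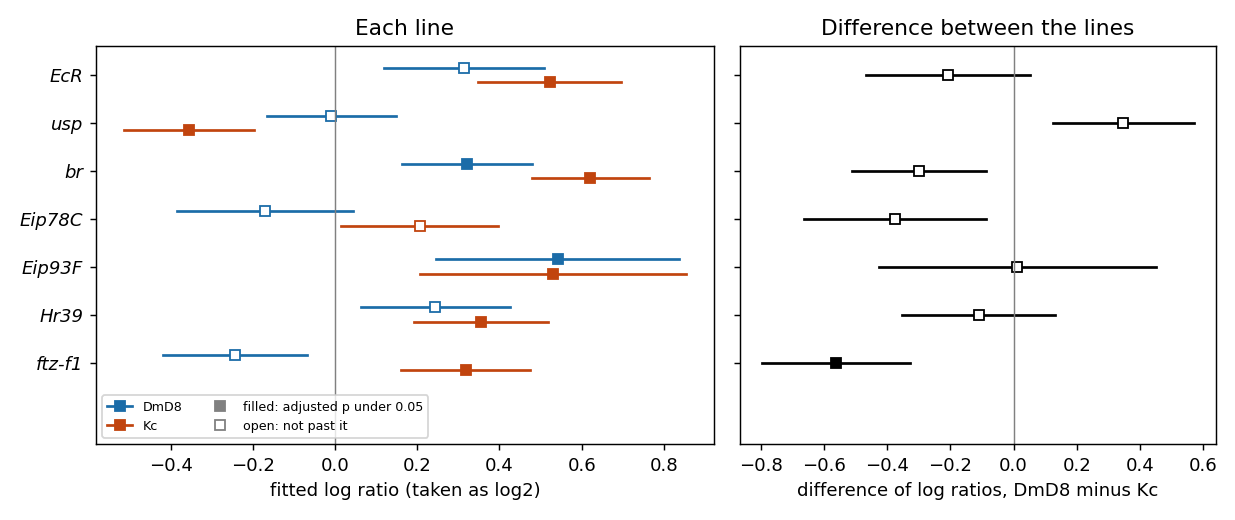
Fitted log ratios (taken as log2) of the 7 tested genes in DmD8 (blue) and Kc (red), left, and the difference DmD8 minus Kc, right, with 95% confidence intervals. Filled squares have a limma adjusted p under 0.05; on the right only ftz-f1, at -0.56, is filled.

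The lines were compared directly by the difference of their ratios, which may come from the cells or, if the DmD8 arrays belong to the inhibitor experiment, from the comparison RNA. Of the 7 genes only ftz-f1 differed, with DmD8 below Kc by limma (difference -0.56 ± 0.11, adjusted p = 0.00744), where 10.9% of all features were called, 4.42% higher and 6.51% lower in DmD8. This call held when any 1 array was left out and was made in 17 of the 36 pairings (adjusted p up to 0.106). Under every pairing 1.58% of features stayed called. For EcR the difference was -0.21 (95% interval -0.47 to 0.05), for br -0.30 (-0.51 to -0.09), for Eip78C -0.38 (-0.66 to -0.09) and for Hr39 -0.11 (-0.35 to 0.13). For usp it was 0.35 (0.12 to 0.57; adjusted p = 0.0528), and 0.42 after median centring (adjusted p = 0.0351). For Eip93F it was 0.01 (-0.43 to 0.45), an interval too wide to call the lines alike. Among single probes, br probes A (-0.63 ± 0.12, adjusted p = 0.00691) and D (-0.59 ± 0.14, adjusted p = 0.0210) differed, and the other 3 br probes did not pass, where 10.9% of single probes did.

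Genes around the receptor were taken from lists of its pathway. Of 11 named genes for making, clearing and importing ecdysone, 9 were tested. Oatp74D, the importer that brings ecdysone into cells, rose in both lines, by 0.58 ± 0.12 in DmD8 and 0.53 ± 0.11 in Kc (limma, adjusted p = 0.0154 and 0.00937). Its ratios ran from -0.05 to 1.19 in DmD8, with 4 of 5 arrays positive, and from 0.14 to 0.84 in Kc, all positive. E23, an ABC transporter that dampens ecdysone responses and is itself induced by the hormone, rose in Kc (0.70 ± 0.12, adjusted p = 0.00325; 0.03 to 1.37, all 6 positive). It stood at -0.03 ± 0.13 in DmD8, and the difference between the lines passed (-0.73 ± 0.18, adjusted p = 0.0230). Npc1a, a cholesterol carrier needed for ecdysone synthesis, fell in DmD8 (-0.43 ± 0.09, adjusted p = 0.0134) and differed between the lines (-0.48 ± 0.11, adjusted p = 0.0231). The list's calls were thus 1 higher and 1 lower in DmD8 and 2 higher in Kc, where 3.08%, 4.16% and 7.1% of all features were called. For the difference 2 were lower in DmD8, where 6.51% of all features were. Under every pairing only the rise of E23 in Kc stayed called in this list by limma, with 2 genes at an unadjusted p under 0.05 in each line and 2 for the difference. Over all features 3.52% stayed called in Kc. The medians of the list were -0.01 in DmD8 and 0.12 in Kc, against -0.04 and 0.01 over all features.

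All 11 named co-regulators of the receptor were tested, and 4 rose in Kc by limma, where 7.1% of all features did. These were E(bx), the large subunit of the NURF remodeller (0.43 ± 0.10), trr, a histone H3 lysine methyltransferase (0.39 ± 0.08), rig, a WD40 protein that binds EcR (0.36 ± 0.10), and tai, a p160-type coactivator (0.33 ± 0.08). Adjusted p lay between 0.00781 and 0.0405, and none stayed called under every pairing, where 5 of the 11 had an unadjusted p under 0.05. None rose or fell in DmD8 with limma, where 2 had an unadjusted p under 0.05. The list's median log ratio was 0.29 in Kc and 0.05 in DmD8, against 0.01 and -0.04 over all features, and no member passed the test of the difference between the lines by limma, where 3 had an unadjusted p under 0.05.

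Of 23 other ecdysone-inducible genes named on the array 15 were tested. Over all features 7.1% rose and 4.81% fell in Kc, and 3.08% rose and 4.16% fell in DmD8. In Kc 3 rose and none fell: vri, a bZIP repressor, Kr-h1, a zinc finger factor that also answers juvenile hormone, and Mical, an actin-disassembling enzyme (0.29 ± 0.08). In DmD8 1 rose, the kinase gene Eip63E (0.57 ± 0.09, adjusted p = 0.00205), and 4 fell. Those were vri, Kr-h1, Hr3, a nuclear receptor of the middle response (-0.43 ± 0.10, adjusted p = 0.0253), and ImpL2, a secreted insulin-binding protein (-0.51 ± 0.11, adjusted p = 0.0202). Kr-h1 stood at 0.88 ± 0.08 in Kc, from 0.67 to 1.04 on 6 arrays, and at -0.51 ± 0.13 in DmD8, from -0.68 to -0.18 on the 3 arrays with a value. These ranges did not overlap, and the difference was -1.39 ± 0.15 (limma, adjusted p = 0.000606). The difference also passed for vri (-2.82 ± 0.17), ImpL2 (-0.82 ± 0.15) and Hr3 (-0.50 ± 0.14). All 4 had the same sign of difference as ftz-f1. Of all features 10.9% were called for the difference, 6.51% of all features being lower in DmD8 and 4.42% higher. The list's median difference was -0.07, against -0.06 over all features. Its medians were -0.11 in DmD8 and 0.06 in Kc, against -0.04 and 0.01. Under every pairing, vri and Kr-h1 kept their rises in Kc and 2 of the 4 differences stayed called, where 3.52% and 1.58% of features did. No member stayed called in DmD8 by limma, where 1.05% of features did and 4 members had an unadjusted p under 0.05.

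Of 14 other nuclear receptors named on the array 9 were tested. For this list and the next, 7.1% of all features rose and 4.81% fell in Kc, and 3.08% rose and 4.16% fell in DmD8. Hnf4, a regulator of lipid and sugar metabolism, rose in Kc (0.30 ± 0.06, limma, adjusted p = 0.00920) and Hr3, which is on this list as well, fell in DmD8. The difference between the lines passed for both, at -0.40 ± 0.09 for Hnf4 (limma, adjusted p = 0.0186) and -0.50 ± 0.14 for Hr3 (adjusted p = 0.0376). Over all features 10.9% were called for the difference, 6.51% lower in DmD8. The other 7 passed in neither line, and the list medians were -0.10 in DmD8 and -0.01 in Kc, against -0.04 and 0.01 over all features. Of 6 tested genes of juvenile hormone reception and turnover, gce, a juvenile hormone receptor (0.37 ± 0.07, adjusted p = 0.00692), and Kr-h1 rose in Kc. In DmD8 Jhe, the juvenile hormone esterase (0.50 ± 0.13, adjusted p = 0.0479), rose and Kr-h1 fell. Of the calls on these 2 lists only the rise of Kr-h1 in Kc and its difference between the lines were held under every pairing. Over all features 3.52% stayed called in Kc, 1.58% for the difference and 1.05% in DmD8. Adjusted p by limma over the pairings reached 0.127 for Hnf4 and 0.0813 for gce in Kc. In DmD8 it reached 0.255 for Jhe, 0.215 for Hr3 and 0.401 for the fall of Kr-h1.

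**Figure D4:**
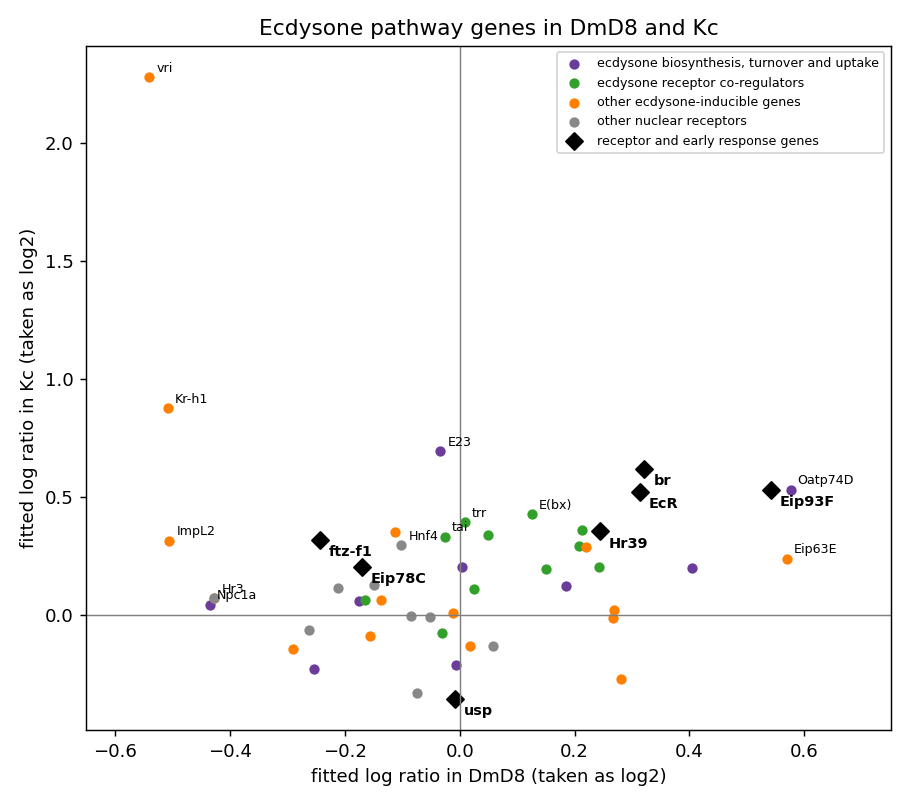
Fitted log ratio in DmD8 (x axis) against Kc (y axis), taken as log2, for the 7 tested genes (black diamonds) and the tested genes of 4 pathway lists (coloured). The 4 genes br, EcR, Hr39 and Eip93F lie at upper right together with Oatp74D, ftz-f1 and Eip78C lie at upper left, as do Kr-h1 and ImpL2, and usp lies below 0 in Kc.

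Likeness over the arrays was described by Pearson's r over the 11 arrays after the dye part was taken out, among 6378 other named genes with complete values. Closest to EcR were CG42663 (r = 0.98), PCB (0.95) and CG3764 (0.93), the CG3764 ratio being called in both lines (0.60 in DmD8 and 0.78 in Kc). Closest to br were CG42709 (0.97), cno (0.96) and Meltrin (0.95), all 3 above 0 and called in Kc. In DmD8, where br rose, their fitted values were -0.27, -0.01 and -0.02, and none was called. Closest to Hr39 were Ndf (0.92), Snp (0.89) and CG3754 (0.89), none of them called in either line. Closest to ftz-f1 were cactin (0.98), Tep4 (0.97) and CG10365 (0.97). The points share arrays and cell lines, and with so many genes compared over 11 arrays high values of r are a description only.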

How the data were processed

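Per the labels, RNA was extracted with Trizol, copied from oligo-dT primers and labelled with Cy3 and Cy5, and spots were quantified with Dapple. The authors deposited 1 log ratio per probe and array, taken here as log2 from the range of values (a natural log cannot be told from log2); background correction, normalization and genome build were not found there. Array medians lay between -0.13 and 0.16 and were left as deposited. The columns of the 2 DmD8 experiments differed by at most 4.87e-08 and were counted once. The signs of the swaps were kept as deposited.

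Probes were named from the platform annotation, and probes of 1 gene averaged. Features needed 3 values and both orientations in each line. limma 3.58.1 (R 4.3.3) was fitted to all 11 arrays, each line having its own mean and its own dye term, after a test on simulated data; figures used matplotlib 3.10.9. The number of arrays limits precision. For pairings, each swap was averaged with a Cy5 array and the dye term kept, which in DmD8 took up the Cy5 array left without a swap. Alternatives are given at the end.

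All 10 genes were described, and list genes were named when past the threshold. The genes, lists and tests were chosen with earlier results of these data known. The gene dor, listed in error for the coactivator DOR, was left out. Gene and probe sequences were not used here.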

Additional observations from a re-analysis of the deposited data

Results flagged for a closer look

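The Eip78C ratio of Kc array 2, 0.43, stood apart from the other 5 Kc arrays, which lay between 0.12 and 0.22 (Dixon's test). Of 14 groups of arrays examined in this way it was the only one, and chance flags about 5% of groups.

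The ftz-f1 response differed between the lines by the test of the difference itself (DmD8 minus Kc, -0.56 ± 0.11, limma, adjusted p = 0.00744), with all 5 DmD8 arrays below 0 and 5 of 6 Kc arrays above it. Over all features 10.9% were called for the difference. The ftz-f1 call was made in 17 of 36 pairings (limma, adjusted p up to 0.106). It was lost with the replicate number as a block (adjusted p = 0.0611) and on Cy5 arrays alone (adjusted p = 0.198). The comparison RNA may differ between the lines, and its effect cannot be told apart from that of the cells.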

How the results depend on the processing

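EcR and br in Kc stayed called under every alternative run other than turning the swaps, except that br probe C alone did not pass (adjusted p = 0.0673). Values below are counts of called features (938 in DmD8, 1542 in Kc and 1415 for the difference) and of called genes among the 7 (2, 6 and 1). Under every pairing (calls made in all 36) they became 136, 456 and 205 features and 0, 2 and 0 genes by limma, where 2 and 1 genes had an unadjusted p under 0.05 in DmD8 and for the difference. With no dye term they were 456, 655 and 505 features, with 0 genes in DmD8 (4 at an unadjusted p under 0.05) and 3 in Kc. The replicate numbers were not shown to pair the arrays: deviations of same-numbered DmD8 and Kc arrays correlated between -0.32 and 0.18. With the number as a replicate block, 365, 859 and 570 features and 0, 2 and 0 genes were called (3 and 3 at an unadjusted p under 0.05 in DmD8 and for the difference), and the Eip93F difference was -0.13. Leaving out 1 array gave 422 to 912, 893 to 1489 and 808 to 1292 features and 0 to 2, 4 to 6 and 1 to 2 genes; usp in DmD8 ran from -0.037 to 0.016 and the Eip93F difference from -0.21 to 0.23. The lowest counts came without DmD8 array 4 (422 and 808) and without Kc array 4 (893). Without DmD8 array 1, 2 or 5 the DmD8 count was 603, 592 or 553. Without Kc arrays 2 and 5 together, 872 features were called in Kc and 859 for the difference. Cy5 arrays alone gave 193 features and 0 genes for the difference (3 at an unadjusted p under 0.05), 1 gene in DmD8 and 3 in Kc, with usp in DmD8 at 0.21 and Eip93F in Kc at -0.083. After median centring 2 genes were called for the difference, usp in DmD8 stood at 0.033, and the higher calls were 504 of 927 in DmD8 (399 of 938 uncentred), 736 of 1466 in Kc (919 of 1542) and 787 of 1397 for the difference (572 of 1415). usp in DmD8 was 0.013 with a shared dye term and 0.035 with none, and the Eip93F difference was -0.070 with none. Among features with a value on all 11 arrays usp and Eip93F could not be tested.

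With the swaps turned, 2211 features were called in DmD8, 2592 in Kc and 0 for the difference by limma (752 at an unadjusted p under 0.05), with 1, 1 and 0 genes (none of the 7 at an unadjusted p under 0.05 for the difference). In DmD8 EcR became -0.26, usp 0.22, Eip78C 0.058 and Eip93F -0.41. In Kc EcR became -0.027, usp 0.0040, Eip93F -0.61 and ftz-f1 -0.20. The differences became 0.14 for br, 0.0014 for Eip78C and 0.093 for ftz-f1. The cause of these changes was not tested, except that turned swaps make the fitted value the dye term by construction.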
